A study of Rattus norvegicus with 48 samples.

Results

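A set of 10 genes of inhibitory neurons and neuropeptide cells was followed through rat primary cortical cultures exposed to the HIV transactivator protein Tat and to cocaine: Gad1, Gad2, Slc32a1, Sst, Npy, Vip, Calb2, Cck, Lhx6 and Hcrt. They were taken by symbol from the deposited expression table, where they are 10 of 30211 genes. The list was proposed with earlier results on these libraries known. Hcrt stood there among the largest falls in Tat-Cocaine against Control, so its values in comparisons with Control or Tat-Cocaine are described here without a test. Which values, if any, led to the choice of the other members is not recorded.

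The cultures were mixed neuronal cultures from 18-day Sprague-Dawley rat fetuses, used after 3 weeks in vitro, and polyA RNA of 48 libraries was sequenced, 3 in each of 16 groups. Cultures received Tat at 6 ng/mL for 48 h (Tat), cocaine at 25 µM for 24 h (Cocaine), Tat for 48 h with cocaine for 24 h (Tat-Cocaine), or neither (Control, whose vehicle is not named in the labels). Each of 4 small molecules was given for 48 h alone, with Tat, or with Tat and cocaine: Amlexanox at 25 µM, an inhibitor of the kinases TBK1 and IKKε; Tazemetostat at 3 µM, an inhibitor of the histone methyltransferase EZH2; 4OI (4-octyl itaconate) at 250 µM, a cell-permeable ester of itaconate; and Senicapoc at 1 µM, a blocker of a calcium-activated potassium channel. No group received cocaine with a small molecule and no Tat. The paper's legends place the 24 h of cocaine after the 48 h of Tat. Cultures with Tat and cocaine may thus have had a longer Tat exposure and a later harvest than those with Tat. The labels do not say whether the 3 libraries of a group came from separate cultures or animals, so the p-values measure the spread between these libraries, which may be technical.

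GABAergic interneurons make GABA from glutamate with the enzymes encoded by Gad1 and Gad2 and load it into vesicles with the transporter encoded by Slc32a1. Cortical interneurons are divided by what else they express: somatostatin cells, which arise in the medial ganglionic eminence under the transcription factor Lhx6, and vasoactive intestinal peptide, calretinin (Calb2) and many cholecystokinin (Cck) cells, which arise mostly in the caudal ganglionic eminence. Cck is also expressed by cortical excitatory neurons. Hcrt encodes the orexin (hypocretin) precursor, known from a small population of lateral hypothalamic neurons that promote wakefulness and not as a cortical interneuron gene.

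Promoter sequences of 8 of the 10 members were found in RefSeq annotation of build GRCr8, as windows of 250 bases before and 50 bases after the annotated start. Windows were searched on both strands for the cAMP response element TGACGTCA, for its core TGACG, which lies within it, and for TATAAA. The full element lay in 1 member window, that of Sst, and in 1.83% of all 33469 windows. The core lay in those of Slc32a1, Sst and Vip, against 21.2% of all windows, and TATAAA lay in those of Gad1, Vip and Hcrt, against 14.2%. The sequences given next are the 250 bases before the start of Hcrt, which fell with Tat, the same stretch of Vip, which fell with cocaine added to Tat, and 30 bases at the start of Sst, which hold the full element. Capitals mark the matches to TGACG, TGACGTCA and TATAAA, which are matches of letters and not sites shown to be bound.
Hcrt, chr10:86191525-86191774, minus strand: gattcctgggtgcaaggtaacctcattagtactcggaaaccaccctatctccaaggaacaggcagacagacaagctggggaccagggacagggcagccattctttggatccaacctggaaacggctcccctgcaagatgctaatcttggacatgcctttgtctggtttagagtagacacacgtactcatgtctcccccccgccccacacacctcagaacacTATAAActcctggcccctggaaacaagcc
Vip, chr1:44470230-44470479, plus strand: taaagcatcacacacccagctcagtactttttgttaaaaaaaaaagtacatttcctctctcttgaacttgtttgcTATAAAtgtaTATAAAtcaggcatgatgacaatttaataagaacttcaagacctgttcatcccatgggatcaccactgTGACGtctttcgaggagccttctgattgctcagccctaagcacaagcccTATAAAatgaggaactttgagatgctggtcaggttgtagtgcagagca
Sst, chr11:90461536-90461565, plus strand: cgcctccttggcTGACGTCAgagagagagt

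Values are CPM, read counts per gene scaled to a common library size, as the authors deposited them after scaling by trimmed mean of M values. Libraries held 17.5 to 29.1 M reads, as inferred from the CPM values. Differences are log2 fold changes of CPM + 0.5, and a call is a false discovery rate (FDR, limma's p-value with Benjamini-Hochberg adjustment over the 15890 genes tested) under 0.05. In bulk RNA, fewer cells of a type and less RNA per cell cannot be told apart. Of the defining markers of these cells, Gad1, Gad2, Slc32a1, Sst, Vip, Calb2, Cck and Lhx6 were above 0.5 CPM in all 48 libraries, while Npy, the precursor of neuropeptide Y, was not: its highest value was 0.364 CPM, with 153 reads over all 48 libraries. Npy was therefore below the filter. With no filter, its mean was lower with cocaine added to Tat in 5 of 5 backgrounds and it did not pass the test (log2 fold change −0.21 over those backgrounds, FDR = 0.0688). These means rest on few reads: with no small molecule the totals were 8 reads in Tat and 8 in Tat-Cocaine (0.119 and 0.117 CPM). Pvalb, which marks the other main medial class, was at 0.209 to 16.4 CPM. For the hypothalamus, which Hcrt marks, 5 of 18 listed genes passed the low-value filter, namely Pomc (median 1.46 CPM), Trh (1.64), Pmch (0.486), Agrp (0.309) and Avp (0.147). Pomc and Trh were above 0 in all 48 libraries, while Qrfp, Oxt and Otp were at 0 in 48, 47 and 46.

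Levels of the 8 expressed members ran together across the libraries, and Tat-Cocaine-Tazemetostat had the lowest mean of the 16 groups for each of them. Over the 48 libraries the Pearson r of log2(CPM + 0.5) between pairs of these 8 genes ranged from 0.768 to 0.982 (28 pairs). Mean Gad1 was highest in Tat-Senicapoc (499 ± 18.9 CPM, SD, n = 3) and lowest in Tat-Cocaine-Tazemetostat (165 ± 33.04 CPM). Gad2 ran from Tat-Senicapoc (511 ± 66.7 CPM, SD, n = 3) to Tat-Cocaine-Tazemetostat (119 ± 27.5 CPM), and Slc32a1 from Senicapoc (138 ± 8.25 CPM, SD, n = 3) to Tat-Cocaine-Tazemetostat (47.8 ± 5.597 CPM). Sst, Vip, Calb2, Cck and Lhx6 had their highest means in Amlexanox. In the order of the 16 group means, nearly all neighbours overlapped in range: 15 of 15 neighbour pairs for Gad1, Slc32a1, Vip, Cck and Lhx6, and 14 of 15 for Gad2, Sst and Calb2. The 3 Cocaine libraries were uneven: replicate 1 lay above the lowest Control library for all 8 genes.

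**Figure D1:**
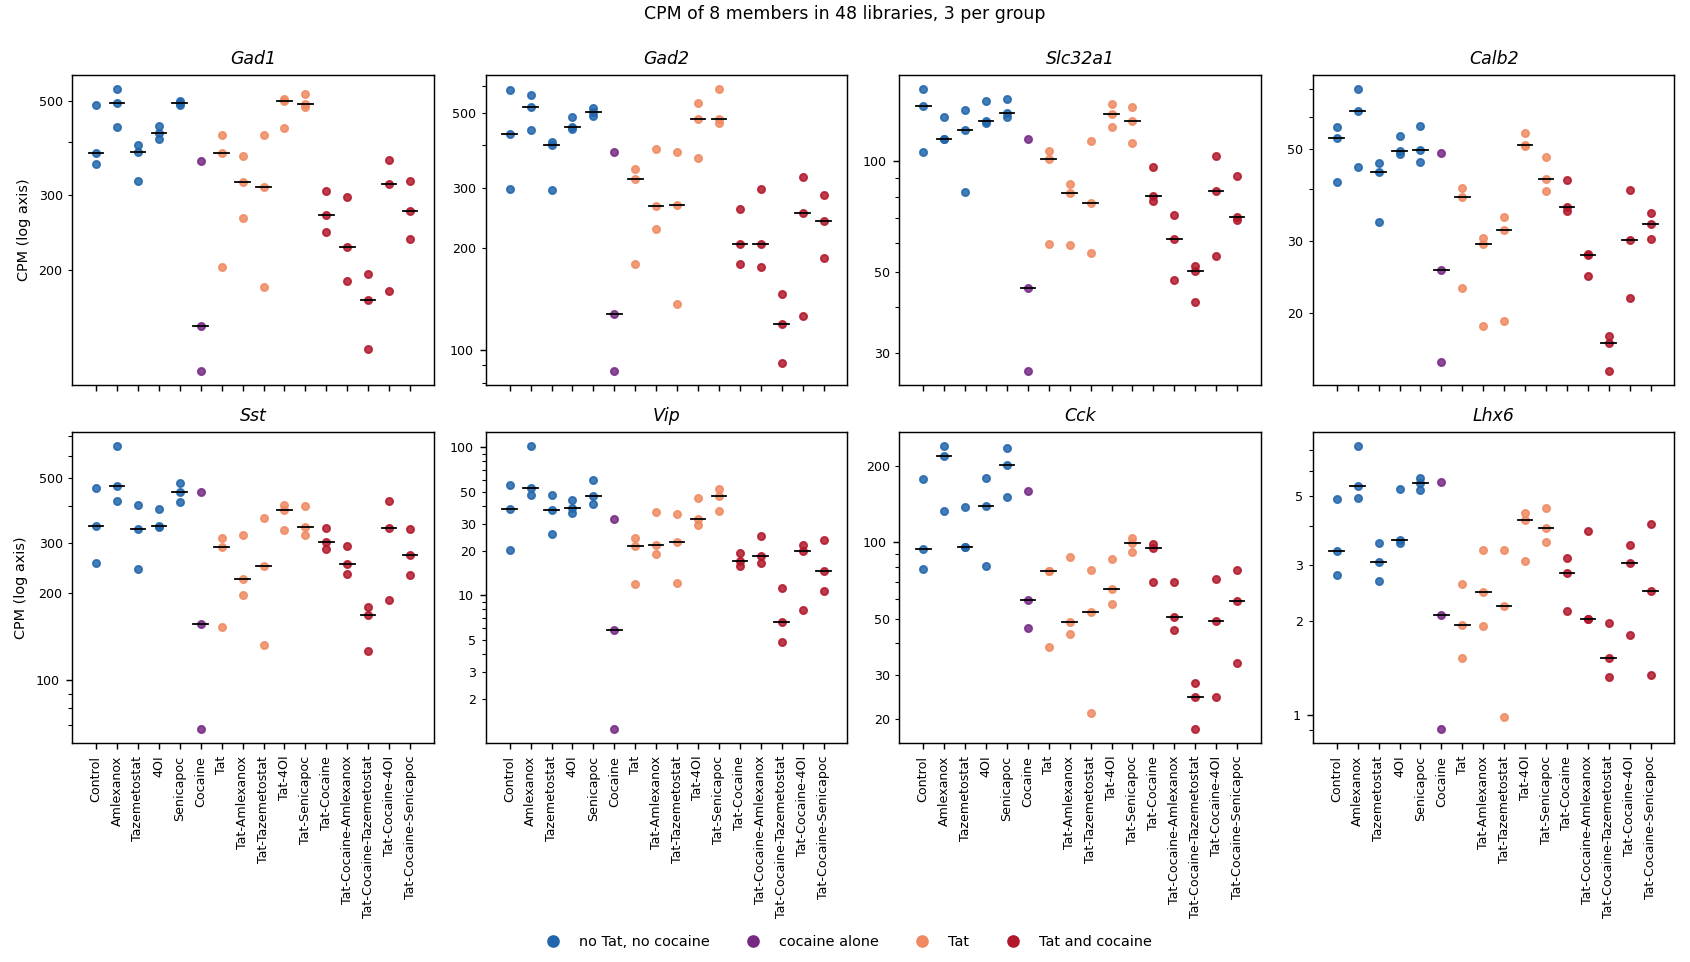
CPM (log axis, a scale of its own for each gene) of 8 members in each of the 48 libraries, grouped by treatment, with points for libraries and bars for the median of 3. Tat-Cocaine-Tazemetostat has the lowest mean for all 8 genes, the 3 Cocaine libraries are spread, and Tat-4OI and Tat-Senicapoc libraries overlap 4OI and Senicapoc for Gad1, Gad2 and Slc32a1.

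Tat was first compared with its absence in the presence of each of the 4 small molecules, 12 libraries against 12, because these libraries were not among those that brought Hcrt to attention. Of the 8 members other than Hcrt and Npy, 3 fell: Cck, Calb2 and Lhx6, against 22.1% of all genes tested called lower and 26.7% called higher. No member rose. Without Tat-Tazemetostat replicate 3 the fall was called for 7 of the 8, all but Gad1. The same held with only the 8 groups compared in the model. The 22.1% belongs to the fit with all libraries and groups and is not the background of either count. These higher counts thus cannot be told from a shift in calls over all genes.

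Cck, which encodes the precursor of cholecystokinin, had a log2 fold change further below 0 than the other 7. Its CPM was 221, 133 and 239.8 in the 3 Amlexanox libraries and 43.6, 48.4 and 87.9 in Tat-Amlexanox. It was 138, 96.04 and 95.7 in Tazemetostat and 53.1, 21.1 and 77.6 in Tat-Tazemetostat. Libraries with and without Tat did not overlap in either case, nor with Senicapoc, where 237, 151 and 203 CPM without Tat stood against 104, 99.4 and 91.9 with it. With 4OI the ranges overlapped, at 179, 80.5 and 139 CPM without Tat and 85.9, 57.2 and 65.2 with it. The log2 fold change over the 4 backgrounds was −1.22 ± 0.22 (SE, FDR = 2.49e-05, 95% interval −1.66 to −0.78). Singly, it passed the test with Amlexanox (−1.74 ± 0.43, FDR = 0.00296) and with Tazemetostat (−1.28 ± 0.43, FDR = 0.0393, the 1 call among the 8 there, background 5.63% lower), and did not with 4OI (−0.88 ± 0.43, FDR = 0.263) or Senicapoc (−0.98 ± 0.43, FDR = 0.123). The Tazemetostat call was lost on leaving out any 1 of 5 libraries (Tazemetostat replicates 1, 2 or 3, or Tat-Tazemetostat replicates 1 or 2), where FDR reached 0.389. The summed call over 4 backgrounds held on leaving out each of the 24 libraries.

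Calb2, which encodes the calcium-binding protein calretinin, fell by 0.48 on the log2 scale over the 4 backgrounds (SE 0.13, FDR = 0.00277). In the single backgrounds it passed the test with Amlexanox, where CPM went from 45.4, 62.1 and 70.2 to 18.6, 30.6 and 29.5 with no overlap (log2 fold change −1.17 ± 0.26, FDR = 0.00119). With 4OI the values were 49.6, 53.8 and 48.7 without Tat and 54.7, 50.9 and 51.2 with it (0.04 ± 0.26, FDR = 0.957). Lhx6 fell to a like extent (−0.51 ± 0.18, FDR = 0.0158), from 5.39, 4.93 and 7.18 CPM in Amlexanox to 1.92, 2.46 and 3.36 in Tat-Amlexanox and from 5.68, 5.22 and 5.49 in Senicapoc to 4.56, 3.56 and 3.94 in Tat-Senicapoc. The libraries did not overlap in either pair. They overlapped with Tazemetostat, at 2.69 to 3.54 CPM without Tat and 0.989 to 3.35 with it. With 4OI they also overlapped, at 3.54 to 5.27 CPM without Tat and 3.09 to 4.41 with it. Of the 4 single tests of Lhx6, 1 passed, that with Amlexanox (FDR = 0.0189).

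The GABA genes and the other peptides did not pass the test over the 4 backgrounds. The log2 fold changes were −0.19 ± 0.15 for Gad1 (FDR = 0.275), −0.35 ± 0.19 for Gad2 (FDR = 0.113) and −0.33 ± 0.15 for Slc32a1 (FDR = 0.0709). Slc32a1 passed it without Tazemetostat replicate 3 or Tat-Tazemetostat replicate 3 (FDR down to 0.0296) and with quantile normalization (FDR = 0.0463). Those of the peptide genes were −0.45 ± 0.19 for Sst (FDR = 0.0504), which lies at the threshold and passed it without Amlexanox replicate 1, Tazemetostat replicate 3, Tat-Amlexanox replicate 3, Tat-Tazemetostat replicate 3 or Tat-Senicapoc replicate 1 (FDR down to 0.01999), and −0.59 ± 0.28 for Vip (FDR = 0.0808). Their 95% intervals, from −0.49 to 0.10 for Gad1 to −1.16 to −0.02 for Vip, leave room for falls of the size seen for Calb2. Within Amlexanox, 4 of the 8 members fell (background 17% lower): Cck, Calb2, Lhx6 and Sst, the last from 416, 471 and 645 to 198, 225 and 319 CPM (−1.05 ± 0.39, FDR = 0.0308). The calls on Sst and Lhx6 there were each lost on leaving out Amlexanox replicate 3 or Tat-Amlexanox replicates 1 or 2. That on Sst was also lost without Amlexanox replicate 2, and FDR reached up to 0.136 in these fits. A contrast added after seeing the data set the Tat effect with Amlexanox against that with the other 3 small molecules. It was below 0 for all 8 members (median −0.71), and none was called by limma (lowest FDR = 0.0556, background 1.74% lower).

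In the absence of a small molecule, Tat against Control gave 0 calls among the 8 members at FDR 0.05 by limma, with unadjusted p under 0.05 for 3 (background 6.7% lower, 14.6% higher). The log2 fold changes were all below 0, from −0.90 for Vip to −0.35 for Gad1, which was at 0.11 once libraries were rescaled to 16 pan-neuronal genes, as given further on. Gad2 was 582, 433 and 298 CPM in Control and 342, 179.5 and 318 in Tat, and Cck 179, 94.3 and 78.2 and 76.9, 38.6 and 76.8. The libraries overlapped for Gad2 and did not for Cck. Tat replicate 2 was the lowest of its group for all 8 genes. Tat-Cocaine against Control also gave 0 calls (2 with unadjusted p under 0.05, background 6.3% lower). The largest differences were those of Vip (−0.99 ± 0.56, FDR = 0.251) and Gad2 (−0.99 ± 0.37, FDR = 0.0691), the latter from 582, 433 and 298 to 261, 205 and 179 CPM without overlap. Gad2 was called lower with replicate number as a block common to all 16 groups (FDR = 0.0383). It was also called lower without Control replicate 3 (FDR = 0.0468). That block is not a pairing of these 2 groups alone, and same-numbered libraries correlated above 0.1 throughout in 27 of 120 pairs of groups. The Tat effect was not called different between any small molecule and none for any of the 8 members (32 tests of the difference by limma, 0 with unadjusted p under 0.05), against 1.84%, 0%, 0.497% and 0% of all genes in either direction for Amlexanox, Tazemetostat, 4OI and Senicapoc.

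**Figure D2:**
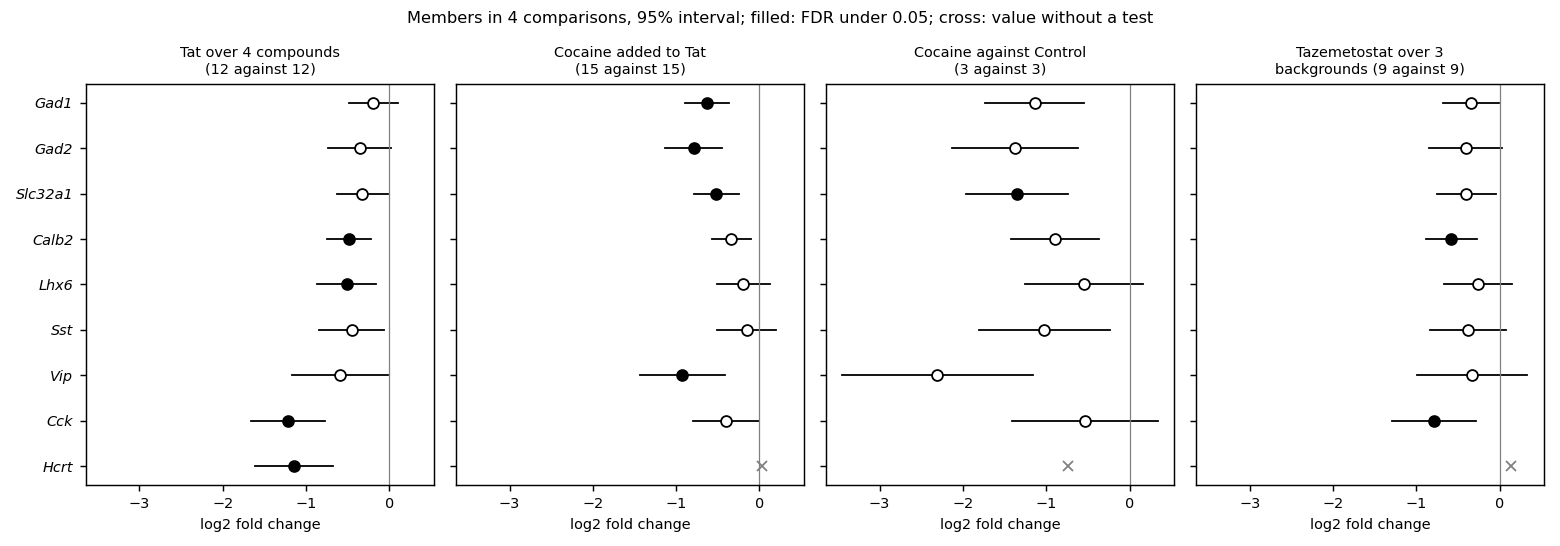
Log2 fold change of CPM + 0.5 (horizontal axis) of 9 members in 4 comparisons, with 95% intervals from the limma fit. Filled points passed FDR 0.05 and crosses mark Hcrt where its values helped to choose it: Cck, Calb2, Lhx6 and Hcrt are filled for Tat, and Gad1, Gad2, Slc32a1 and Vip for cocaine added to Tat.

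Cocaine was compared within Tat-treated cultures over 5 backgrounds, 15 libraries with Tat and cocaine against 15 with Tat. If cocaine followed the 48 h of Tat, it cannot be told apart from a longer Tat exposure or a later harvest. Here the GABA genes fell: 4 of the 8 members were called lower, Gad1, Gad2, Slc32a1 and Vip, against 2.91% of all genes called lower, and none rose (1.64% of all genes). Gad1 fell by 0.62 on the log2 scale (SE 0.13, FDR = 0.00416) and Gad2 by 0.79 (SE 0.17, FDR = 0.00461). Slc32a1 fell by 0.52 (SE 0.13, FDR = 0.0218) and Vip, a peptide of disinhibitory interneurons, by 0.93 (SE 0.25, FDR = 0.0278). Sst did not pass the test (−0.15 ± 0.17, FDR = 0.669, 95% interval −0.50 to 0.20), nor did Calb2 (−0.34 ± 0.12, FDR = 0.0851), which passed it without Tat replicate 2, Tat-Amlexanox replicate 1, Tat-Tazemetostat replicate 2 or Tat-Cocaine-4OI replicate 1 (FDR down to 0.0301), Cck (−0.40 ± 0.19, FDR = 0.243) or Lhx6 (−0.19 ± 0.16, FDR = 0.526). A difference between genes in the size of the fall was not tested.

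By background, Gad1 went from 520.2, 492 and 484 CPM in Tat-Senicapoc to 275, 236 and 323 in Tat-Cocaine-Senicapoc, and from 499, 431 and 504 in Tat-4OI to 364, 178 and 319 in Tat-Cocaine-4OI, with no overlap in either. It went from 313, 182 and 415 to 169, 129.7 and 195 with Tazemetostat, from 265, 321 and 371 to 188, 226 and 297 with Amlexanox, and from 416, 202 and 377 to 306, 269 and 245 with no small molecule, and there the ranges overlapped. The mean of Gad1, Gad2, Slc32a1 and Vip was lower with cocaine in 5 of 5 backgrounds. These genes were called over the same backgrounds, so that count is not separate support. The smallest of these differences were slight, as for Slc32a1 with no small molecule (from 88.9 to 84.8 CPM). Vip went from 51.99, 46.4 and 36.7 to 14.4, 10.7 and 23.5 CPM with Senicapoc and from 22.8, 11.98 and 35.1 to 6.57, 4.79 and 11.1 with Tazemetostat, neither with overlap. No single background gave a call for any of the 8 members (40 tests, lowest FDR = 0.167, 15 with unadjusted p under 0.05), against 0%, 0%, 0%, 0% and 0.164% of all genes called lower with no small molecule, Amlexanox, Tazemetostat, 4OI and Senicapoc. The calls rest on the 5 backgrounds together. Those on Gad1 and Gad2 held on leaving out each of the 30 libraries. That on Slc32a1 was lost without Tat-Cocaine-Amlexanox replicate 1 or Tat-Tazemetostat replicate 3 (FDR up to 0.0545). That on Vip was lost without either of these or without Tat-Senicapoc replicate 1, Tat-4OI replicate 1, Tat-Amlexanox replicate 3, or replicate 2 of Tat-Cocaine-4OI, Tat-Cocaine-Tazemetostat or Tat-Cocaine-Senicapoc (FDR up to 0.0644).

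Cocaine alone against Control rested on 3 uneven libraries. Slc32a1 was 157, 141 and 106 CPM in Control and 114, 45.3 and 26.8 in Cocaine. It was the 1 member of 8 called lower (−1.35 ± 0.30, FDR = 0.0463, background 0.164% lower), and the call was lost without Cocaine replicate 2 or 3 or Control replicate 1 or 2 (FDR up to 0.824). Vip was 55.3, 38.2 and 20.02 CPM in Control and 32.5, 5.83 and 1.25 in Cocaine (−2.31 ± 0.56, FDR = 0.0683), Gad1 488, 376 and 356 and 359.7, 147 and 115 (−1.14 ± 0.29, FDR = 0.0764), and Sst 462, 343 and 255 and 449, 156 and 67.9 (−1.02 ± 0.39, FDR = 0.252). Cocaine replicate 1 exceeded the lowest Control library for each of these genes. Without Cocaine replicate 1, 7 of the 8 members were called lower. The 0.164% belongs to the fit with all libraries and is not the background of that count. In Cocaine replicate 3 the summed level of 11 oligodendrocyte lineage genes was 26696 CPM, and in the other 47 libraries at most 2906 CPM, while 16 pan-neuronal genes summed to 4232, 1845 and 1595 CPM in the 3 Cocaine libraries and 4387, 3359 and 2976 in Control. The part of either in the falls was not tested.

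Since markers of all neurons also moved, the members were set against them. Over the 48 libraries the Pearson r of each of the 8 members with the mean log2 level of 16 pan-neuronal genes, such as Map2, Snap25 and Syt1, was 0.883 (Cck) to 0.951 (Gad1). These points share library and depth, and groups are not independent of treatment. The median log2 fold change of the pan-neuronal list was −0.32 for Tat over the 4 backgrounds (7 of 16 lower, none higher), −0.30 for cocaine added to Tat (2 of 16 lower), and −0.70 for cocaine alone (0 of 16). The shares of all genes called lower in these 3 comparisons were 22.1%, 2.91% and 0.164%. The summed level of the pan-neuronal list ranged from 1301 to 1864 CPM in Tat-Cocaine-Tazemetostat and from 4288 to 4744 in Senicapoc. When each library was rescaled to this list, an alternative added after seeing the data that moved the median of all genes by 0.28 for Tat and 0.30 for cocaine, Cck still fell with Tat (−0.94, FDR = 3.28e-07) and so did Calb2 (−0.20, FDR = 0.0493), while Lhx6 lost its call (−0.23, FDR = 0.0823) and Gad1 was at 0.09 (FDR = 0.224). For cocaine added to Tat, Gad1 (−0.33, FDR = 8.14e-05), Gad2 (−0.50, FDR = 5.33e-05), Slc32a1 (−0.22, FDR = 0.0309) and Vip (−0.63, FDR = 0.0184) remained lower on that scale, while Sst was at 0.14 (FDR = 0.167) and Lhx6 at 0.10 (FDR = 0.3499), both above 0.

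**Figure D3:**
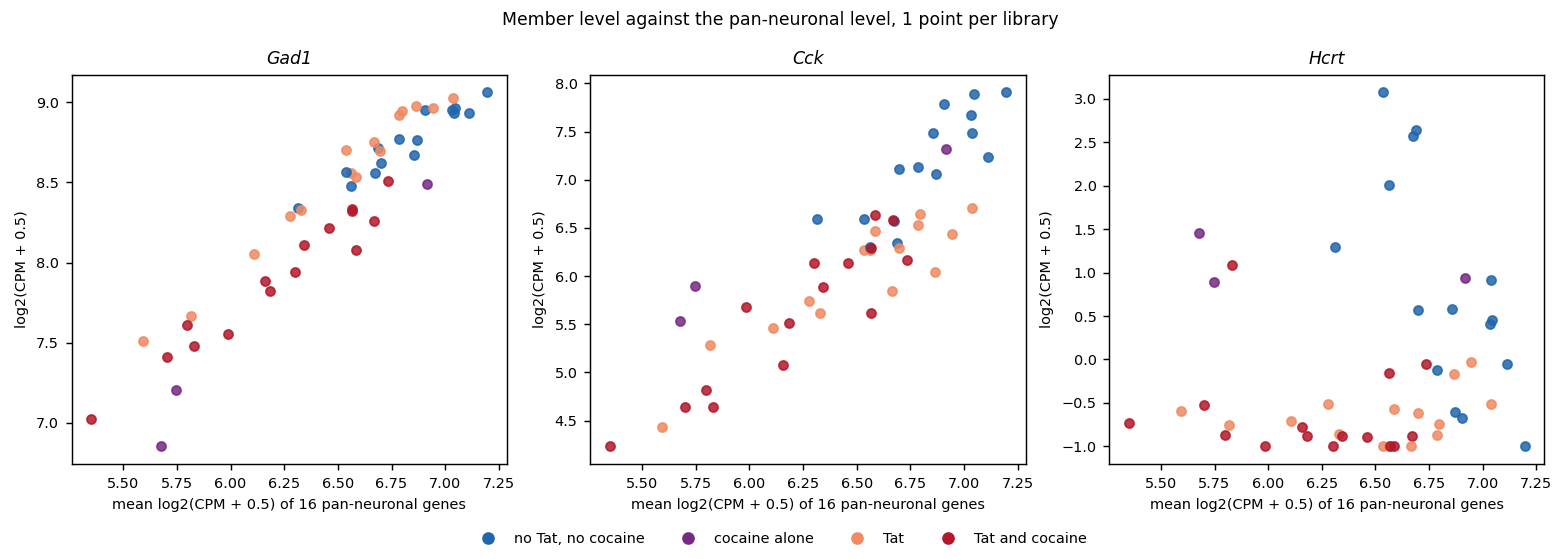
Log2(CPM + 0.5) of Gad1, Cck and Hcrt (vertical axes) against the mean log2(CPM + 0.5) of 16 pan-neuronal genes (horizontal axis), 1 point per library and 48 points a panel. Gad1 rises with the pan-neuronal level (r = 0.951) and Tat-and-cocaine libraries lie low in the band, Cck libraries with Tat lie mostly below those without at a like pan-neuronal level, and Hcrt shows no band (r = 0.0876).

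Hcrt did not run with the other members. Its Pearson r with each of them over the 48 libraries was 0.00259 to 0.216. It was at or above 0.5 CPM in 14 libraries, 13 of them without Tat, so it passed the low-value filter only through the groups where it is high. The values behind its choice were 1.38, 5.44 and 3.54 CPM in Control (36, 111 and 78 reads) and 0.0426, 0 and 0 in Tat-Cocaine (1, 0 and 0 reads). Tat alone had 0, 0.09196 and 0 CPM and Cocaine alone 1.42, 1.36 and 2.25, so all 3 Cocaine libraries lay above all 3 Tat libraries.

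In the libraries that did not choose it, Hcrt was lower with Tat in 3 of the 4 small molecules. With Tazemetostat it was 0.986, 7.94 and 1.95 CPM without Tat (22, 210 and 50 reads) and 0.202, 0.1604 and 0.152 with it (4, 3 and 3 reads). With Senicapoc it was 0.869, 0.464 and 0.823 and 0.198, 0.0974 and 0.04503 CPM. In neither case did the groups overlap. With 4OI it was 0.994, 5.74 and 0.417 CPM without Tat and 0.482, 0 and 0.389 with it, with overlap. Amlexanox libraries were already near 0, at 0.125, 0.155 and 0 CPM, and stayed there with Tat, at 0.111, 0.0513 and 0.174. Over the 4 backgrounds the log2 fold change was −1.15 ± 0.23 (FDR = 0.000138), and an exact two-sided permutation of the Tat labels within backgrounds, with 160000 arrangements, gave p = 0.00315. The filter did not use the Tat labels, and with no filter the FDR was 0.000227. The size depends on the value added before the log, at −1.83 with 0.1 and −0.83 with 1, and 3 reads were worth 0.1003 to 0.175 CPM.

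Singly, the fall passed the test with Tazemetostat (−2.22 ± 0.46, FDR = 0.000984, with no filter 0.00163). It did not with 4OI (−1.43 ± 0.46, FDR = 0.06498), Senicapoc (−0.98 ± 0.46, FDR = 0.1502) or Amlexanox (0.05 ± 0.46, FDR = 0.939). With only the 2 Tazemetostat groups in the model the call was lost (FDR = 0.0847). With Tat and cocaine, Hcrt stayed at or below 0.193 CPM except with 4OI, where it was 0.468, 1.63 and 0.396 CPM (10, 28 and 8 reads) against 0.482, 0 and 0.389 in Tat-4OI (0.69 ± 0.46, FDR = 0.606). The genes most like Hcrt over the 48 libraries, by Pearson r of log2(CPM + 0.5), were AABR07028488.1 (0.865), Adgrg2 (0.849), Ap3m2 (0.847), Sord (0.829) and RGD1559896 (0.828). Those most like Gad1 were Cadps (0.973), Camk2b (0.972), Car10 (0.9701), Nt5dc3 (0.969) and AABR07017145.2 (0.965).

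**Figure D4:**
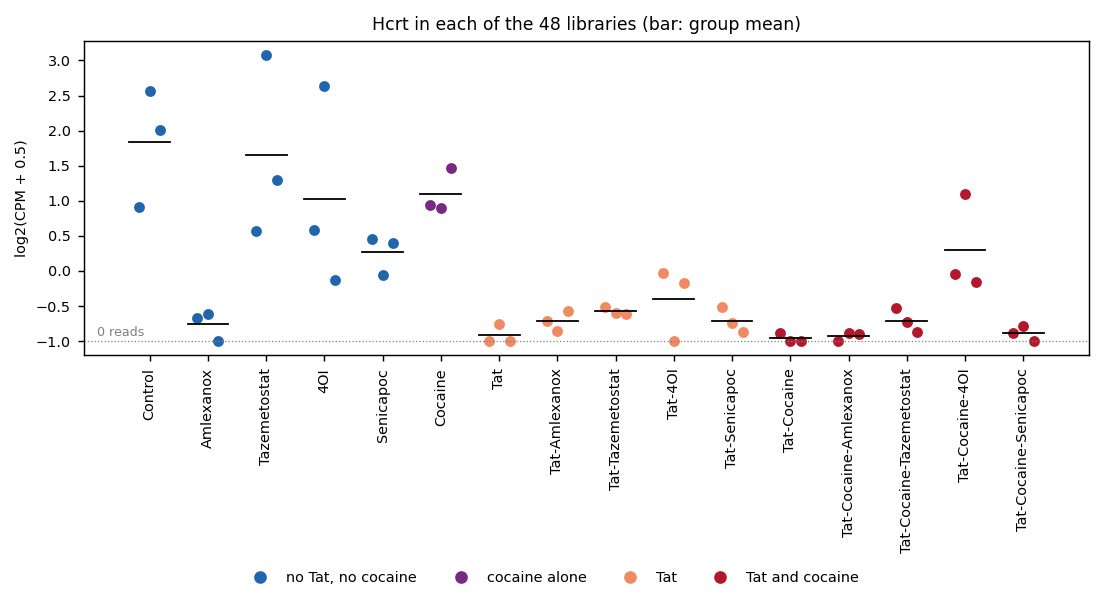
Log2(CPM + 0.5) of Hcrt in each of the 48 libraries by group (points, with bars for the group mean), where the dotted line is 0 reads. Hcrt is at or above 0.5 CPM, which is 0 on this axis, in 13 libraries without Tat and 1 with Tat, and the 3 Amlexanox libraries lie among those with Tat.

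Of the small molecules, each taken over 3 backgrounds (9 libraries against 9), Tazemetostat moved 2 of the 8 members (background 4.65% lower): Calb2 (−0.58 ± 0.15, FDR = 0.0161) and Cck (−0.79 ± 0.25, FDR = 0.0395) fell. Tazemetostat against Control and Tat-Tazemetostat against Tat each gave 0 of 8 calls, with 0 at unadjusted p under 0.05 (backgrounds 0% and 0% in either direction). With Tat and cocaine, Calb2 went from 42.1, 36.2 and 35.5 CPM in Tat-Cocaine to 16.96, 14.5 and 17.6 in Tat-Cocaine-Tazemetostat (−1.19 ± 0.26, FDR = 0.005798) and Cck from 95.4, 98.97 and 69.7 to 24.5, 18.3 and 27.7 (−1.89 ± 0.43, FDR = 0.00638). Slc32a1 went from 96.4, 80.3 and 77.8 to 50.3, 41.4 and 51.7 (−0.82 ± 0.30, FDR = 0.0397), with no overlap for any of these genes, so that 3 of 8 members fell (background 13.4% lower). All 3 calls were lost without Tat-Cocaine-Tazemetostat replicate 2, at FDR of 0.0513 for Calb2 and 0.0572 for Cck, and that on Slc32a1 also without 4 of the other 5 libraries, Tat-Cocaine replicate 3 being the exception (FDR up to 0.151). Rescaled to the pan-neuronal genes, which were also lower there, Slc32a1 was at 0.08 and Calb2 lost its call (−0.29, FDR = 0.102), while Cck was at −0.99 (FDR = 0.00348).

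Over the 3 backgrounds the Calb2 call was lost without Tat-Tazemetostat replicate 2 (FDR = 0.06198) and on rescaling to the pan-neuronal genes (−0.16, FDR = 0.131), where Cck was at −0.37 (FDR = 0.0306). The Cck call was lost without any 1 of 10 of the 18 libraries (Control replicate 1, Tat replicates 1 and 3, Tat-Cocaine replicates 1 and 2, Tazemetostat replicates 2 and 3, Tat-Tazemetostat replicate 2 and Tat-Cocaine-Tazemetostat replicates 1 and 2, FDR up to 0.142). 4OI, Amlexanox and Senicapoc gave 0 calls each among the 8 members by limma, with unadjusted p under 0.05 for 0, 0 and 1 of them (backgrounds 22.8%, 7.99% and 1.16% in either direction). Their log2 fold changes ranged from −0.20 to 0.33 for 4OI, from −0.28 to 0.48 for Amlexanox and from 0.07 to 0.52 for Senicapoc.

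Other genes of the same cells and pathways, from lists chosen with earlier results known, were counted beside the members. Over all genes tested, 22.1% were called lower and 26.7% higher with Tat over the 4 backgrounds. The shares were 6.7% lower and 14.6% higher in Tat against Control, and 2.91% lower and 1.64% higher with cocaine added to Tat. List counts were not tested against these shares. Of 26 further GABAergic and interneuron genes, 15 fell and 1 rose with Tat over the 4 backgrounds (median −0.41, all genes 0.00). The 1 that rose was Pvalb, the parvalbumin gene of fast-spiking interneurons (from 0.9396 to 5.15 CPM, log2 fold change 1.96, FDR = 4.44e-08), and it rose in Tat against Control too (from 1.03 to 8.33 CPM, log2 fold change 2.48, FDR = 0.000253). Among those that fell were Calb1 (from 183 to 109.9 CPM, log2 fold change −0.74, FDR = 1.57e-05), which encodes calbindin, and Npas1 (from 11.2 to 7.14 CPM, log2 fold change −0.71, FDR = 0.0111), an interneuron transcription factor. In Tat against Control 3 of the 26 fell, among them Abat (from 284 to 140.2 CPM, log2 fold change −1.03, FDR = 0.00214), which encodes the enzyme that degrades GABA. With cocaine added to Tat, 7 of the 26 fell and none rose, led by Kcnc2 (from 29.1 to 16.3 CPM, log2 fold change −0.76, FDR = 0.0218), a fast potassium channel gene, and Reln (from 244 to 147 CPM, log2 fold change −0.71, FDR = 0.00292), which encodes the secreted protein reelin.

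For the peptide lists too, the shares over all genes were 22.1% lower and 26.7% higher with Tat over the 4 backgrounds. They were 2.91% lower with cocaine added to Tat, and 6.7% lower and 14.6% higher in Tat against Control. Of 15 other neuropeptide precursors, 2 rose and 5 fell with Tat over the 4 backgrounds, with Grp (from 4.12 to 1.54 CPM, log2 fold change −1.12, FDR = 1.17e-05) the largest fall. With cocaine added to Tat 2 fell, Crh (from 2.45 to 0.806 CPM, log2 fold change −1.21, FDR = 0.00261), the corticotropin-releasing hormone gene, and Vgf (from 359 to 194 CPM, log2 fold change −0.84, FDR = 0.00518), an activity-regulated secretory protein gene. Of the genes that process peptides, 3 of 5 tested fell with Tat, among them Scg5 (from 114 to 69.8 CPM, log2 fold change −0.72, FDR = 0.000855) and Pcsk2 (from 85.5 to 63.1 CPM, log2 fold change −0.51, FDR = 0.009802), a prohormone convertase. Of receptors for the member peptides, 3 of 11 tested fell and 0 rose with Tat over the 4 backgrounds, falls near the 22.1% over all genes. Among those that fell were Vipr2 (from 2.84 to 1.35 CPM, log2 fold change −0.96, FDR = 7.48e-06), a receptor for the Vip peptide, and Cckbr (from 7.92 to 4.44 CPM, log2 fold change −0.82, FDR = 0.000719), the main brain receptor for cholecystokinin. Cckbr also fell with cocaine added to Tat, the 1 of 11 that did (from 4.38 to 2.36 CPM, log2 fold change −0.79, FDR = 0.00604). In Tat against Control 2 of the 11 fell and 1 rose, Sstr2 (from 2.59 to 8.11 CPM, log2 fold change 1.40, FDR = 0.00455), a somatostatin receptor gene. The orexin receptor genes Hcrtr1 and Hcrtr2 were at 0.0871 to 1.62 and 0.408 to 4.35 CPM over the 48 libraries.

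For the lists of other cells, the shares over all genes were again 22.1% lower and 26.7% higher with Tat over the 4 backgrounds. With cocaine added to Tat they were 2.91% lower and 1.64% higher. Of 12 excitatory neuron genes, 7 fell with Tat over the 4 backgrounds (median −0.48) and 3 with cocaine added to Tat (median −0.30), and none rose in either. Of 12 microglial genes, 5 rose and 1 fell with Tat (median 0.42) and 0 were called with cocaine added to Tat (median −0.03). Of 11 astrocyte genes, 2 rose and 5 fell with Tat, and 0 were called with cocaine added to Tat. The part of these other cell types in the member falls was not tested.

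**Figure D5:**
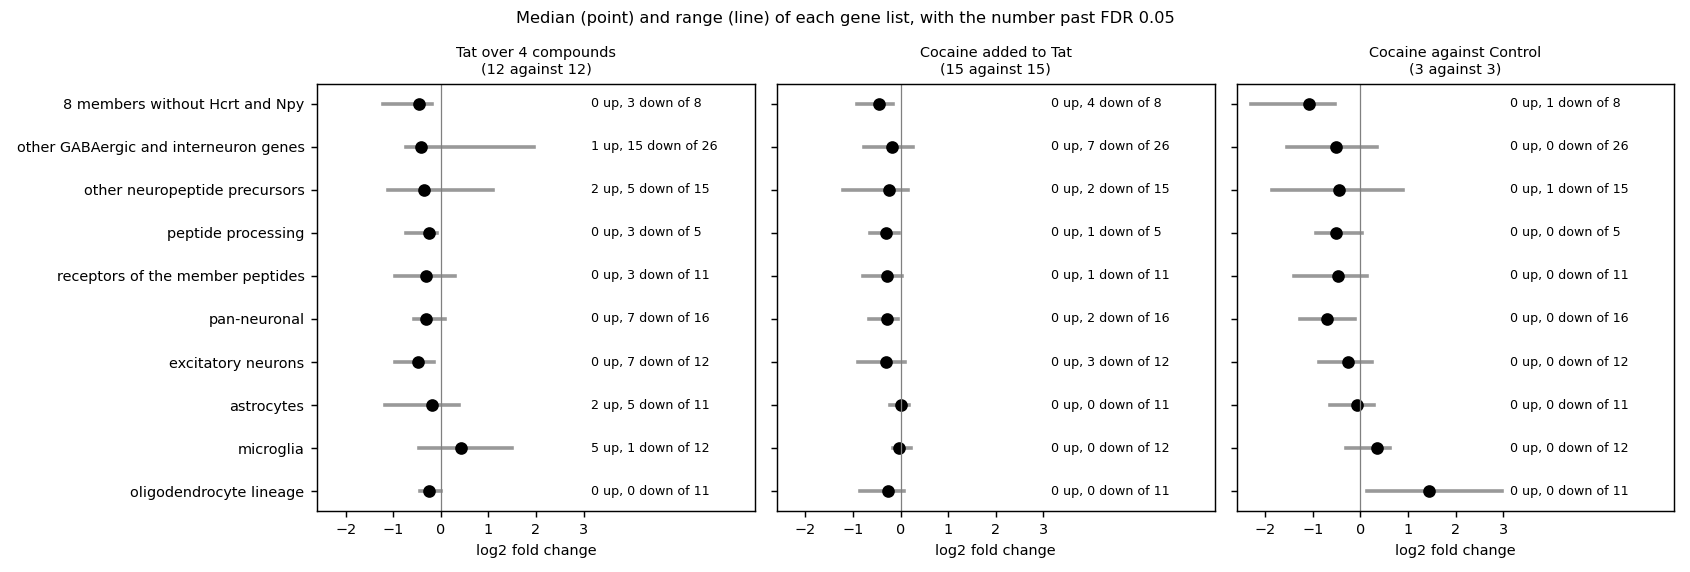
Median (point) and range (line) of log2 fold changes of each gene list in 3 comparisons, with the number of genes past FDR 0.05 in each direction and the number tested. Medians of the 8 members, the peptide lists and the neuronal lists lie below 0 in all 3 comparisons, the microglial median is 0.42 for Tat, and for cocaine alone the oligodendrocyte list has the highest median at 1.43.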

How the data were processed

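RNA of 48 libraries was sequenced as 100-base read pairs after a directional library preparation. Per the study's methods, the authors aligned reads to Rnor_6.0 with STAR, took those that mapped uniquely, counted them with featureCounts and scaled the counts by trimmed mean of M values. The submitters' processing notes list FastQC, Trim Galore 0.4.5, STAR 2.7.2, SAMtools 1.5 and Subread 1.5.3, with the builds mRatBN7.2 and hg38, so the build is not settled. No file coordinate was used. The authors deposited 1 signal table, scaled CPM (read counts on a common library size) per gene and library. Its 180 columns of the authors' 36 comparisons (fold changes, p-values) and 16 group-mean columns were not used. Read numbers and depth were inferred from CPM, with the most frequent value above 0 in each library taken as 1 read. On that scale between 85.0 and 87.3% of values above 0 lay within 0.02 of a whole read. No count test was run.

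A gene entered the fit where 3 or more libraries reached 0.5 CPM, which 15890 of 30211 did. Values were fitted on log2(CPM + 0.5) with limma 3.58.1 in R 4.3.3, with 16 group means over all 48 libraries and a trended prior. P-values were adjusted by Benjamini-Hochberg over all genes tested, with a threshold of 0.05. An exact permutation of 3 libraries against 3 cannot go below p = 0.10. Groups and replicate numbers came from the sample titles. Replicates of a group had r between 0.987 and 0.999 over all 30211 genes, 6162 of them at 0 throughout, and none were duplicates. Over the 15890 genes tested, the lowest mean r of a library with the others of its group was 0.965, for Cocaine replicate 1. Depth was 17.5 to 29.1 M reads, so that 0.5 CPM stood for 8.58 to 14.96 reads.

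The members and gene lists were chosen with earlier results of these data known. The text names the members, at most 3 genes per list and comparison with the largest change among those called at a mean of at least 1 CPM, and the 5 genes most like Hcrt and Gad1. Levels of Pvalb, the orexin receptor genes and the hypothalamic genes were added after their values were seen. Cort and Vipr1 were not matched. The replicate block was common to all 16 groups. Replicate numbers were taken as shared by 2 groups where the deviations of all 3 same-numbered libraries correlated above 0.1. This held for Control with Tat-Cocaine (r = 0.507, 0.200 and 0.545) and Amlexanox with Tat-Amlexanox (r = 0.221, 0.176 and 0.237), and not for the other comparisons of 2 groups that gave a call. Alternatives were other pseudocounts, filters and scalings, a fit to the compared groups, no trend, a replicate block and leaving out each library. Scaling to pan-neuronal genes and the contrast of Amlexanox with the other 3 small molecules were added after seeing the data. The fit was tested on simulated data.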

Additional observations from a re-analysis of the deposited data

How the results depend on the processing

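Counts of members called lower include Hcrt where it was tested. The share of all genes called at each setting, or without each library, is not given. A moved count thus cannot be told from a shift in calls over all genes. Of alternatives other than leaving out a library, those that moved a count by over 1.5 times were as follows, and the cause was not tested. With no filter the count was 0 for Cocaine against Control, 1 for Tazemetostat over 3 backgrounds and 1 for Tat with Tazemetostat. For Tat-Cocaine-Tazemetostat against Tat-Cocaine it was 5 with median ratio rescaling and 5 with quantile normalization, which gave 0 for Cocaine against Control. In fits to the compared groups alone it was 8 for Tat over 4 small molecules, 0 for Cocaine against Control, 1 for Tazemetostat over 3 backgrounds, 8 for Tat with Amlexanox, 0 for Tat with Tazemetostat and 7 for Tat-Cocaine-Tazemetostat against Tat-Cocaine. With the replicate block it was 1 for Tat-Cocaine against Control, 4 for Cocaine against Control and 6 for Tat-Cocaine-Tazemetostat against Tat-Cocaine. All 3 same-numbered correlations were above 0.1 only in the first of these comparisons. Over all pairs of groups, 27 of 120 had all 3 same-numbered correlations above 0.1, and in 21 every library correlated best with its own number. For the Tat effect with Amlexanox against the other 3, 1 member was called higher with a pseudocount of 0.1, and 1 higher and 1 lower with the replicate block. Scaled to the pan-neuronal genes, the count was 1 for Tat-Cocaine against Control, 4 for Cocaine against Control, 1 for Tazemetostat over 3 backgrounds, 2 for Tat with Amlexanox, 1 for Tat with Tazemetostat and 1 for Tat-Cocaine-Tazemetostat against Tat-Cocaine.

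That scaling reversed 8 differences: Gad1 to 0.11 in Tat against Control and 0.0861 in Tat over 4 small molecules, Sst to 0.0793 in Tat-Cocaine against Control and 0.14 in cocaine added to Tat, Lhx6 to 0.10 in cocaine added to Tat and 0.10 in Cocaine against Control, Cck to 0.11 in Cocaine against Control, and Slc32a1 to 0.0798 in Tat-Cocaine-Tazemetostat against Tat-Cocaine. None of these passed the test.

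On leaving out each library, the number of members called lower ranged from 4 to 8 for Tat over 4 small molecules, 2 to 5 for cocaine added to Tat, 0 to 7 for Cocaine against Control, 0 to 1 for Tat-Cocaine against Control, 0 to 3 for Tazemetostat over 3 backgrounds, 2 to 6 for Tat with Amlexanox, 1 to 2 for Tat with Tazemetostat, 0 to 4 for Tat-Cocaine-Tazemetostat against Tat-Cocaine, and 0 to 1 higher and 0 to 1 lower for Amlexanox against the other 3. In Tat-Cocaine against Control, Cck ranged from −0.58 to 0.0183 and Sst from −0.37 to 0.0540, the positive values both without Control replicate 1. At 8.58 to 14.96 reads for 0.5 CPM, depth limits what can be said of Npy and of Hcrt in Tat libraries.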

Other observations

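Some peptide genes outside the members passed the test with 4OI, taken over 3 backgrounds (9 libraries against 9), where 11% of all genes were called higher and 11.8% lower. Of the 15 other neuropeptide precursors, 2 rose and 0 fell (median 0.08), namely Penk (from 46.6 to 116 CPM, log2 fold change 1.37, FDR = 0.000923), the proenkephalin gene, and Scg2 (from 267 to 378 CPM, log2 fold change 0.56, FDR = 0.0469), which encodes a granin of dense-core vesicles. The processing genes Cpe (from 1536 to 1929 CPM, log2 fold change 0.34, FDR = 0.00292), a carboxypeptidase, and Pam (from 391 to 489 CPM, log2 fold change 0.34, FDR = 0.00194), the enzyme that amidates peptides, also rose. Of the receptors, Sstr2 (from 5.53 to 2.91 CPM, log2 fold change −0.67, FDR = 0.0165), a somatostatin receptor, fell and Vipr2 (from 1.899 to 2.75 CPM, log2 fold change 0.54, FDR = 0.0275) rose. The peptides Sst and Vip themselves did not pass the test with 4OI, with log2 fold changes of 0.22 ± 0.22 (SE, FDR = 0.548) and 0.30 ± 0.33 (FDR = 0.5699). Markers of glia moved in the same comparison. Of the 11 astrocyte genes, 4 rose and 0 fell (median 0.22), among them Slc1a2 (from 56.6 to 102 CPM, log2 fold change 0.83, FDR = 2.06e-06), S100b (from 803 to 1158 CPM, log2 fold change 0.73, FDR = 0.0306) and Gfap (from 3448 to 4895 CPM, log2 fold change 0.50, FDR = 0.0114). Of the 12 microglial genes, 0 rose and 8 fell (median −0.92), among them C1qb (from 446 to 215 CPM, log2 fold change −1.14, FDR = 0.000273), Aif1 (from 148 to 69.4 CPM, log2 fold change −1.11, FDR = 0.0173) and C1qa (from 633 to 324 CPM, log2 fold change −1.07, FDR = 0.00201). Of the 16 pan-neuronal genes, 1 rose and 0 fell (median 0.11), the 1 being Uchl1 (from 240.2 to 338 CPM, log2 fold change 0.51, FDR = 0.00437). The part of these in the peptide values was not tested.

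With Tazemetostat over 3 backgrounds, 4.65% of all genes were called lower and 6.75% higher. Of 26 further GABAergic and interneuron genes, 1 rose and 3 fell (median −0.32). Among those that fell was Nos1 (from 26.2 to 16.5 CPM, log2 fold change −0.74, FDR = 0.0268), the neuronal nitric oxide synthase gene. The 1 that rose was Maf (from 46.3 to 66.7 CPM, log2 fold change 0.53, FDR = 0.0149), a transcription factor gene listed here for medial interneurons. Maf fell with 4OI over 3 backgrounds (from 46.3 to 30.3 CPM, log2 fold change −0.63, FDR = 0.00066). Which cells its RNA came from was not tested. Of the 12 microglial genes, 4 rose and 0 fell (median 0.64), and of the 16 pan-neuronal genes, 0 rose and 4 fell (median −0.39). The part of these in the interneuron values was not tested.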
